A study of Mus musculus with 8 samples.

Results

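Insulin-like growth factor (IGF) signalling was described in liver endothelial cells through 10 genes: the binding proteins Igfbp2, Igfbp3, Igfbp4, Igfbp5, Igfbp6 and Igfbp7, the ligand Igf1, the receptors Igf1r and Insr, and the receptor adaptor Irs2. They were taken by symbol from a deposited table of 49585 genes and 122968 isoforms, in which the 10 genes have 36 isoforms. The choice was made on the contrast described here, with the higher level of Igfbp3 in view, so the differences of the 10 genes between the conditions are given as a description and without a test. The tested condition was siL-DHX15-LEC (n = 4), C57BL/6 mouse liver sinusoidal endothelial cells immortalized with the SV40 virus that carry a lentiviral, doxycycline-inducible shRNA against the RNA helicase DHX15. It was set against wild-type LEC (n = 4), the same immortalized line, labelled wild-type and untreated. The labels give no separate clones, cultures or days for the 4 libraries of a condition, so the spread between them may be technical. The labels name no vector or doxycycline control, and all siL-DHX15-LEC libraries ran on other flow cell lanes than the wild-type LEC libraries, so effects of the vector, of doxycycline and of the lane cannot be told apart from the silencing.

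IGF1 and IGF2 are secreted growth factors that bind the IGF1 receptor, a tyrosine kinase that passes the signal through adaptors of the IRS family to PI3K and Akt. In plasma and in tissue most of the ligand is held by the IGF binding proteins (IGFBP1 to IGFBP6), which limit or prolong its access to the receptor and have actions of their own at the cell surface. IGFBP7 binds IGFs with low affinity and is best known as a protein of blood vessel walls. In liver, hepatocytes are the main source of circulating IGF1, while non-parenchymal cells make IGFBP3.

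The values are normalized counts, reads per gene divided by a size factor for each library, and the isoforms of a gene were added up. Libraries held 77335734 to 149258495 reads on isoforms in siL-DHX15-LEC, the lowest in replicate 1, and 118830467 to 152045693 in wild-type LEC. Sequencing was paired-end, so a read counted here stands for a read pair, and its assignment to an isoform is an estimate. Dhx15, the gene targeted by the shRNA, averaged 8968 ± 856 normalized counts in siL-DHX15-LEC and 27303 ± 797 in wild-type LEC (SD, n = 4 each), which is 32.8% of the wild-type level. Its log2 fold change was -1.61 (SE 0.06, adjusted p = 3.32e-08, limma with Benjamini-Hochberg adjustment). Among the 16497 genes that averaged 10 normalized counts or more over the 8 libraries and were tested, 33.2% passed an adjusted p of 0.05. Of these, 55.5% were higher in siL-DHX15-LEC, and 32.3% were higher when the libraries were rescaled to equal totals. The endothelial label was only partly borne out by its markers. Of 13 endothelial markers 7 averaged 10 or more, among them Flt1 (1433 to 1602 normalized counts in siL-DHX15-LEC and 1617.5 to 1803 in wild-type LEC), Kdr, Eng, Esam, Nos3 and Pecam1 (35.1 to 40.8 in siL-DHX15-LEC and 19.1 to 33.0 in wild-type LEC). Kdr lay between 744 and 800 in siL-DHX15-LEC and between 682 and 815 in wild-type LEC. However, Cdh5, Tie1, Erg, Emcn and Cldn5, which define endothelium, were at or near 0, at most 4.73 in siL-DHX15-LEC and 2.60 in wild-type LEC. Of 9 sinusoidal and lymphatic markers 4 averaged 10 or more. Pdpn, listed here as lymphatic, was at 6892 to 7241 in siL-DHX15-LEC and 6993 to 7904 in wild-type LEC. Flt4, also lymphatic, was at 95.4 to 163 in siL-DHX15-LEC and 130 to 143 in wild-type LEC. The sinusoidal marker Stab1 was at 132 to 155 in siL-DHX15-LEC and 129 to 191 in wild-type LEC. The lymphatic marker Prox1 was only at 4.73 to 8.49 in siL-DHX15-LEC and 8.66 to 15.5 in wild-type LEC. The lymphatic markers were thus mixed, and a lymphatic identity is not shown by them. Stab2, Lyve1 and Clec4g were at most 3.51 in siL-DHX15-LEC and 9.40 in wild-type LEC. Of 9 mesothelial markers 8 averaged 10 or more, and they ranged widely. Krt8 was at 101556 to 113013 in siL-DHX15-LEC and 85851 to 102989 in wild-type LEC. Krt19 was at 46681 to 52351 in siL-DHX15-LEC and 30663 to 36298 in wild-type LEC. Msln was at 21517 to 23993 in siL-DHX15-LEC and 22339 to 23815 in wild-type LEC. Upk3b, Wt1, Upk1b and Gpm6a averaged 4704, 3956, 1803 and 120 in siL-DHX15-LEC and 7091, 5047, 2713 and 179 in wild-type LEC. Muc16 was at 15.0 to 27.4 in siL-DHX15-LEC and 24.7 to 36.4 in wild-type LEC. Lrrn4 was at 3.40 to 4.42 in siL-DHX15-LEC and 11.1 to 19.8 in wild-type LEC.

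Sequences at the starts of 5 binding protein genes are shown, because levels of these genes are compared below. These 5 have a RefSeq start at most 23 bases from the start of a deposited isoform. For Igfbp5 that isoform is Igfbp5-001, which was at 0 in all 8 libraries. All Igfbp5 reads were assigned to Igfbp5-002, whose start lies 590 bases from the RefSeq start. The Igfbp5 window is thus not that of the measured transcript. Each run is the 150 bases before the RefSeq transcription start (GRCm38.p6), read on the gene's strand. Capitals mark the TATA-like motifs TATATA and TATAAA and the GC box GGGCGG, searched on both strands.
Igfbp3, chr11:7213924-7214073, minus strand: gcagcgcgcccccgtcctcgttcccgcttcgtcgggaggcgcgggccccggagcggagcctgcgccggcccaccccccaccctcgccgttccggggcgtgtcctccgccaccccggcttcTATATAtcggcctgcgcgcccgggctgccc
Igfbp4, chr11:99041094-99041243, plus strand: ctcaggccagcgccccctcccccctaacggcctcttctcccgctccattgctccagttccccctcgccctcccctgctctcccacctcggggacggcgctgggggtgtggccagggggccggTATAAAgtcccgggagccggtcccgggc
Igfbp7, chr5:77408046-77408195, minus strand: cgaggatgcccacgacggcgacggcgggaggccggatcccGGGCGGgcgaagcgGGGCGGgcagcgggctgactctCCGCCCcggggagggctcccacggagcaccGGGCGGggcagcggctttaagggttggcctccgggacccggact
Igfbp2, chr1:72824330-72824479, plus strand: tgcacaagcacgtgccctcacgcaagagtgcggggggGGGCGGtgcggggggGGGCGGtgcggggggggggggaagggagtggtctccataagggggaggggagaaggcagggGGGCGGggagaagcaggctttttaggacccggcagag
Igfbp5, chr1:72874866-72875015, minus strand: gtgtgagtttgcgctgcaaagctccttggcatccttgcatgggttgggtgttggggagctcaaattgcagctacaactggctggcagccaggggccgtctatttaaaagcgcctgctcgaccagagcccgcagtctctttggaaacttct
Igfbp3 held the first TATA-like motif once, beginning 30 bases before the start, and Igfbp4 held the second once, beginning 28 bases before the start. Igfbp7 held neither, but 4 GC boxes that began between 110 and 44 bases before its start, and Igfbp2 held 3 GC boxes that began between 113 and 37 bases before its start. The Igfbp5 window held none of the motifs, and no GC box was found in the Igfbp3 or the Igfbp4 window. Of the genes described below, Igfbp3 and Igfbp4, with a TATA-like motif, were higher in siL-DHX15-LEC. Of those with GC boxes, Igfbp7 was level and Igfbp2 lower. Igfbp6, whose window is not shown, was higher too, as was the scarce Igfbp5, which held none of the motifs. Whether the motifs bear on the differences was not tested, and from 5 windows nothing is read from them. Among 32851 RefSeq windows of the same length, 2.97% held TATATA and 7.57% the other TATA-like motif, while 28.6% held the GC box. The TATA-like motifs can overlap each other and did not in these windows. A match is a run of letters and not a site shown to be bound. Of the 10 genes, 9 have an entry in the RefSeq table, Insr being the one without. The starts of Igfbp6, Igf1, Igf1r and Irs2 there lie 176, 218, 570 and 471 bases from the nearest start among their deposited isoforms and are not shown, nor is a second RefSeq start of Igfbp2, 65 bases from the nearest.

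Of the 6 binding proteins, Igfbp3, Igfbp4 and Igfbp6 were abundant and higher in every silenced library, Igfbp7 was abundant and level, and Igfbp2 and Igfbp5 were scarce, the first of them lower in silenced cells. Igfbp3, the main IGF carrier in plasma, had 11921, 10769, 10355 and 9807 normalized counts in siL-DHX15-LEC against 6425, 6637, 6215 and 5928 in wild-type LEC. Every silenced library lay above every wild-type library, and the lowest silenced value was well above the highest wild-type value. The means were 10713 ± 897 in siL-DHX15-LEC and 6301 ± 302 in wild-type LEC (SD, n = 4 each), a log2 fold change of 0.76 (SE 0.06). Among all genes tested, 0.94% had a higher log2 fold change than Igfbp3. The gene was chosen with its higher level in view, so nothing is read from this placement. The gene lies at chr11:7206086-7213923 on the minus strand of GRCm38, with 3539 bases between it and Igfbp1, the neighbouring binding protein gene.

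Igfbp4, a binding protein known mainly for holding IGFs back from the receptor (chr11:99041244-99054392, plus strand), had 53900.4, 56047, 54204 and 50667 normalized counts in siL-DHX15-LEC against 43312, 41644, 42751 and 42298 in wild-type LEC. The conditions did not overlap. The means were 53705 ± 2237 in siL-DHX15-LEC and 42501 ± 706 in wild-type LEC, a log2 fold change of 0.34 (SE 0.04). Igfbp6, which prefers IGF2 to IGF1 (chr15:102144362-102149511, plus strand), had 9699, 10304, 10152.5 and 8973 normalized counts in siL-DHX15-LEC against 7900.02, 7559.6, 7744 and 7606 in wild-type LEC. Its conditions did not overlap either, and the log2 fold change was 0.34 (SE 0.05), close to that of Igfbp4 and smaller than that of Igfbp3.

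Igfbp7, a binding protein of the vessel wall (chr5:77349240-77408041, minus strand), was as high in one condition as in the other. It had 10189, 10864, 10372 and 10009 normalized counts in siL-DHX15-LEC against 10520.0, 9882, 10373 and 10658 in wild-type LEC. The values were mixed, and the means of 10358.5 ± 368 in siL-DHX15-LEC and 10358.3 ± 338 in wild-type LEC differed by far less than 1 SD (SE of the log2 fold change 0.04). The sign of its difference turned with the library left out.

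**Figure D1:**
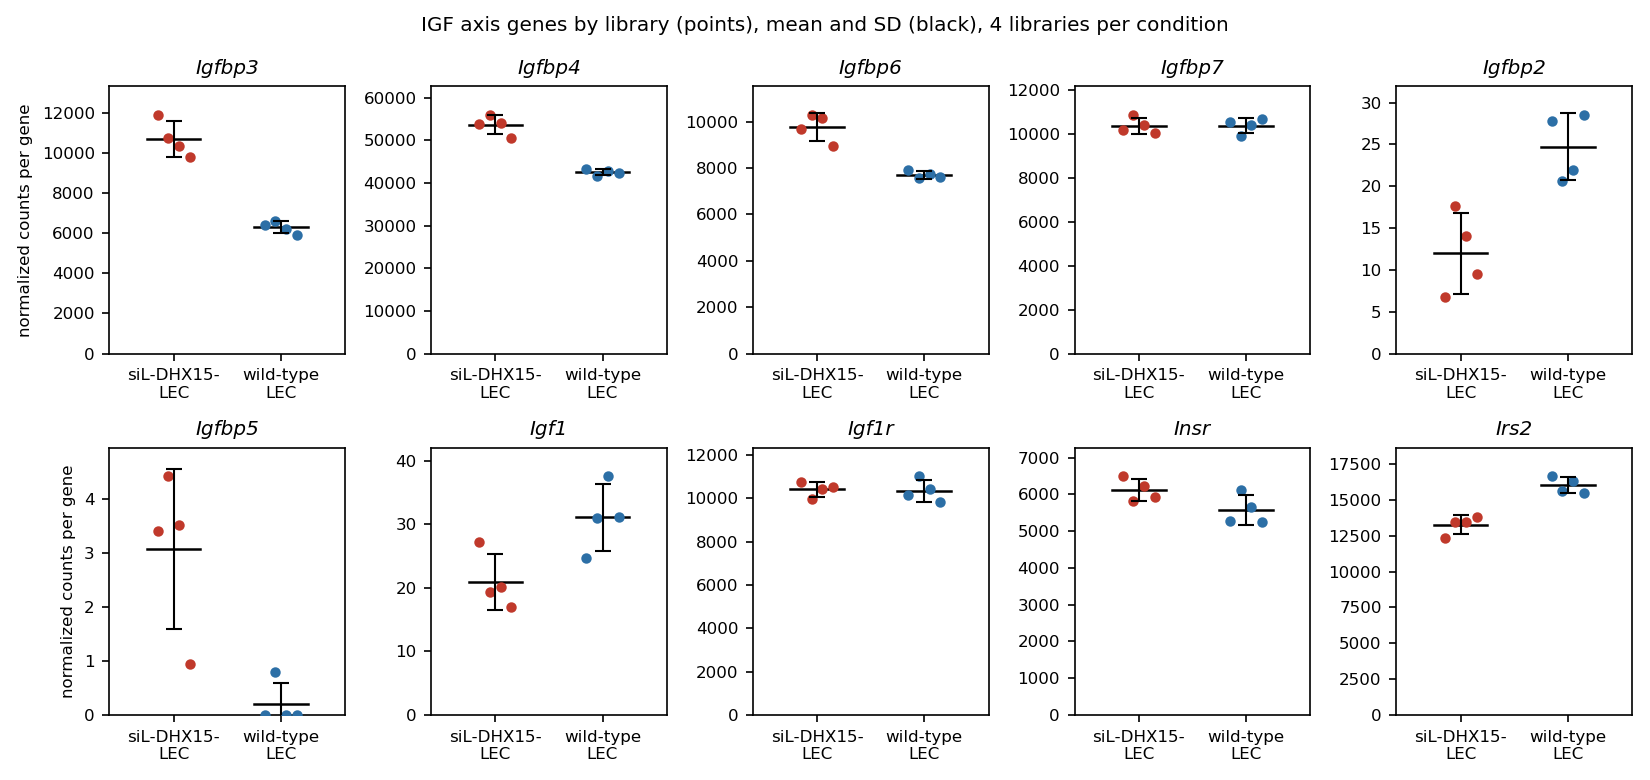
Normalized counts (y axis, from 0, a scale for each panel) of the 10 IGF axis genes in the 4 siL-DHX15-LEC libraries (red, left) and the 4 wild-type LEC libraries (blue, right). Points are libraries, the black line is the mean and the bar 1 SD. Igfbp3, Igfbp4 and Igfbp6 lie higher in every silenced library, Irs2 and Igfbp2 lower, and Igfbp7 and Igf1r are level.

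Igfbp2 and Igfbp5, neighbours on chromosome 1 with 5457 bases between them, were scarce. Igfbp2, in the adult a major product of the liver (chr1:72824503-72852474, plus strand), had 6.80, 17.7, 14.0 and 9.46 normalized counts in siL-DHX15-LEC against 27.8, 20.6, 21.9 and 28.6 in wild-type LEC. These stand for 4, 20, 16 and 10 reads in siL-DHX15-LEC and 27, 26, 21 and 33 reads in wild-type LEC. All silenced libraries were lower, with a log2 fold change of -1.05 (SE 0.29). Igfbp5, a binding protein that attaches to extracellular matrix (chr1:72857932-72874884, minus strand), had 3.40, 4.42, 3.51 and 0.95 normalized counts in siL-DHX15-LEC against 0, 0.79, 0 and 0 in wild-type LEC, which is 2, 5, 4 and 1 reads in siL-DHX15-LEC and 0, 1, 0 and 0 reads in wild-type LEC. The lowest silenced library and the highest wild-type library thus held 1 read each and were set apart by the size factors alone. All of these reads were assigned to the processed transcript Igfbp5-002, and the coding isoform Igfbp5-001 was at 0 in all 8 libraries. The gene did not reach the mean of 10, and no fold change is given at this depth.

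The ligand Igf1 was scarce too (chr10:87858265-87937042, plus strand). It had 27.2, 19.4, 20.2 and 17.0 normalized counts in siL-DHX15-LEC against 24.7, 30.95, 37.6 and 31.2 in wild-type LEC. The conditions overlapped, since siL-DHX15-LEC replicate 1 lay above wild-type LEC replicate 1, and the log2 fold change was -0.55 (SE 0.21). The reads summed to 79 in siL-DHX15-LEC and 135 in wild-type LEC and were spread over 8 isoforms, of which Igf1-001 alone reached a mean of 10. Both Igf1 and Igfbp2 are made by hepatocytes, and hepatocyte transcripts moved with them. All 20 hepatocyte markers of a list that includes Alb and Ttr were lower in every siL-DHX15-LEC library, with sums of 71.0 to 100.06 normalized counts against 1615 to 1815 in wild-type LEC, and 10 of the 20 were at 0 in every silenced library. Alb was at 0 to 1.89 in siL-DHX15-LEC and at 522 to 658 in wild-type LEC. The part of hepatocyte RNA in the Igf1 and Igfbp2 values was not tested, nor was the source of that RNA. The conditions ran on different lanes, and in bulk RNA fewer cells of a type and less RNA per cell cannot be told apart. Markers of other cells the culture could hold were counted in the same way. Over all genes tested 30.8% had no overlap, 17.6% being higher and 13.2% lower in siL-DHX15-LEC. Against that share nothing is read from the counts that follow. The 9 mesothelial markers summed to 182878 to 200076 in siL-DHX15-LEC and 154504 to 179030 in wild-type LEC, with 1 higher and 5 lower without overlap. Krt8 and Krt19 made up most of these sums, and Krt19 was the 1 that was higher. The 5 that were lower were Upk3b, Upk1b, Wt1, Gpm6a and Lrrn4, while Krt8, Msln and Muc16 overlapped. The higher sum thus does not stand for the list as a whole. The 10 stellate cell and fibroblast markers summed to 38365 to 39711 in siL-DHX15-LEC and 44814 to 45990 in wild-type LEC, with 1 higher and 3 lower. Col1a1 made up most of these sums, averaging 34156 in siL-DHX15-LEC and 40797 in wild-type LEC. Lower were Col1a1, Pdgfra and Reln, higher was Des, and Pdgfrb and Col3a1 overlapped. The lower sum does not stand for this list as a whole either. The 8 macrophage markers summed to 490 to 508 in siL-DHX15-LEC and 522 to 620 in wild-type LEC, with 1 lower, Csf1r. Of them 4 were at 0 in every silenced library and 2 in every wild-type library, and 6 averaged under 10. The 9 sinusoidal and lymphatic markers summed to 7231 to 7505 in siL-DHX15-LEC and 7371 to 8331 in wild-type LEC, most of it Pdpn. Of these markers 3 were lower, Mrc1 (25.5 to 41.6 in siL-DHX15-LEC and 79.4 to 90.7 in wild-type LEC), Stab2 and Prox1. The 13 endothelial markers summed to 2773 to 2981 in siL-DHX15-LEC and 3001 to 3229 in wild-type LEC, with 1 higher and 2 lower. Their part in the Igfbp3, Igfbp4 and Igfbp6 values was not tested.

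The receptors differed little. Igf1r, the receptor for IGF1 and IGF2 (chr7:67952827-68233668, plus strand), had 10758, 9951, 10425.5 and 10529.9 normalized counts in siL-DHX15-LEC against 10151, 11023, 10421 and 9819.6 in wild-type LEC. The conditions overlapped almost fully, with a log2 fold change of 0.01 (SE 0.04) whose sign turned when the libraries were rescaled. Insr, the insulin receptor (chr8:3122061-3279617, minus strand), had 6498, 5822, 6226 and 5934 normalized counts in siL-DHX15-LEC against 5273, 6132, 5669 and 5239 in wild-type LEC. The mean was higher in siL-DHX15-LEC, with a log2 fold change of 0.14 (SE 0.06), but wild-type LEC replicate 2 lay among the silenced libraries.

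Irs2, the adaptor that links both receptors to PI3K (chr8:10984681-11008458, minus strand), stood lower in silenced cells. It had 12332, 13456.5, 13491 and 13834 normalized counts in siL-DHX15-LEC against 16654, 15631, 16321 and 15507.5 in wild-type LEC. No silenced library reached the lowest wild-type library, and the log2 fold change was -0.27 (SE 0.04).

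Counted over the 10 genes, 4 were higher without overlap (Igfbp3, Igfbp4, Igfbp6 and the scarce Igfbp5, whose separation rests on the size factors), 2 were lower without overlap (Igfbp2 and Irs2) and 4 overlapped. Of the 9 genes past the mean of 10, 3 were higher and 2 lower without overlap. Over all 16497 genes tested, 30.8% had no overlap, 17.6% being higher and 13.2% lower. As the genes were chosen on this contrast, nothing is read from the count. Leaving out 1 library turned Insr into a gene without overlap (without wild-type LEC replicate 2) or Igf1 (without siL-DHX15-LEC replicate 1 or wild-type LEC replicate 1).

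Levels can be compared between genes only per length, here as normalized counts per kilobase of annotated transcript. On this scale the order was the same in both conditions, namely Igfbp4, Igfbp7, Igfbp6, Igfbp3, Irs2, Igf1r, Insr, Igfbp2, Igf1 and Igfbp5. Igfbp4 led with 16724 ± 704 normalized counts per kilobase in siL-DHX15-LEC and 13262 ± 204 in wild-type LEC. Igfbp7 stood at 9272 ± 329 in siL-DHX15-LEC and 9274 ± 303 in wild-type LEC. Igfbp6 stood at 8797 ± 538 in siL-DHX15-LEC and 6927 ± 138 in wild-type LEC. In siL-DHX15-LEC the ranges of Igfbp7 and Igfbp6 overlapped, whereas in wild-type LEC they were apart. Igfbp3 stood at 4494 ± 383 per kilobase in siL-DHX15-LEC, clear of Irs2 at 2100.0 ± 103, while in wild-type LEC Igfbp3, at 2641 ± 130, and Irs2, at 2535 ± 86.9, overlapped. Igf1r stood at 920.0 ± 29.8 per kilobase in siL-DHX15-LEC and 915 ± 44.2 in wild-type LEC, above Insr at 679.6 ± 32.9 in siL-DHX15-LEC and 621 ± 43.9 in wild-type LEC. Igfbp2, at 9.66 ± 3.19 per kilobase in siL-DHX15-LEC and 19.9 ± 2.23 in wild-type LEC, overlapped Igf1 in siL-DHX15-LEC (5.61 ± 2.20) and not in wild-type LEC (7.14 ± 1.46).

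**Figure D2:**
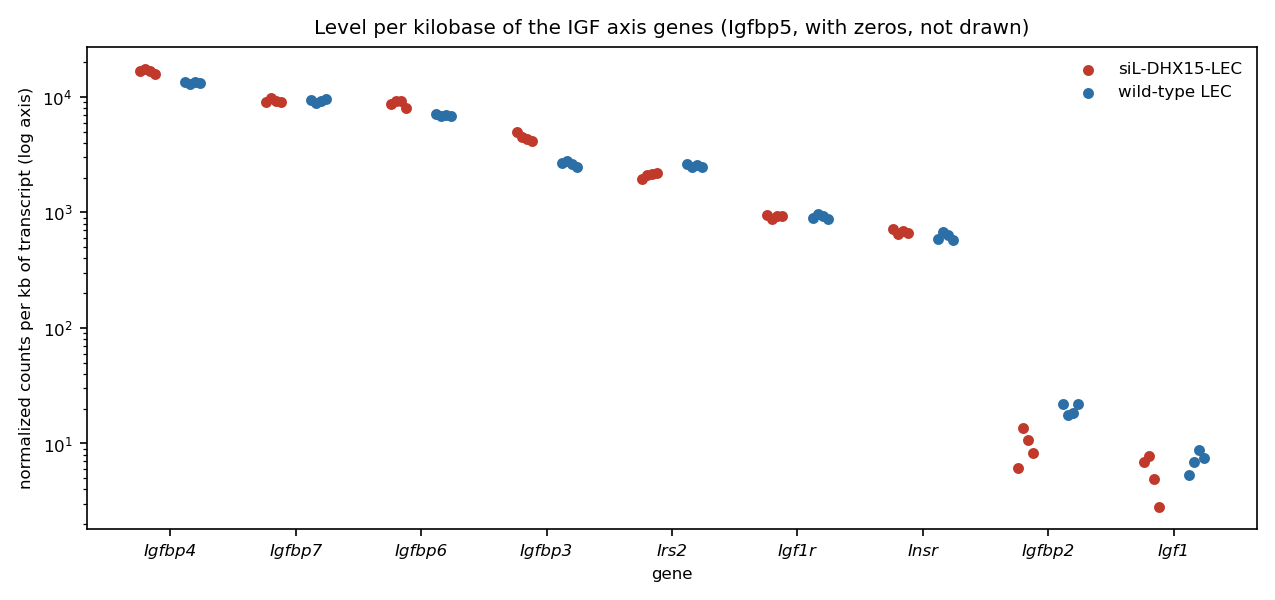
Level per length of 9 IGF axis genes, in normalized counts per kilobase of transcript on a log axis, for the 4 siL-DHX15-LEC libraries (red, left of each pair) and the 4 wild-type LEC libraries (blue). Genes run from the highest to the lowest mean. Igfbp4, Igfbp7, Igfbp6 and Igfbp3 lie above the receptors, and Igfbp2 and Igf1 lie far below the receptors.

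Per kilobase the 6 binding proteins together summed to 36918 to 40983 normalized counts in siL-DHX15-LEC and 31470 to 32733 in wild-type LEC. Igfbp3 made up 11.4 ± 0.81% of this sum in siL-DHX15-LEC and 8.22 ± 0.46% in wild-type LEC, and Igfbp7 made up 23.6 ± 0.54% in siL-DHX15-LEC and 28.9 ± 0.68% in wild-type LEC. Igfbp4 kept the largest portion, 42.6 ± 0.14% in siL-DHX15-LEC and 41.3 ± 0.16% in wild-type LEC. These portions depend on the length used. With the length of its isoform with the highest mean, Igfbp4 stood at 14018 per kilobase in siL-DHX15-LEC and 11094 in wild-type LEC. The level of Igf1r was 1.35 ± 0.04 times that of Insr in siL-DHX15-LEC and 1.48 ± 0.04 times in wild-type LEC (SD, n = 4 each).

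The isoforms show which transcripts carried these levels. Of the 36 isoforms, 20 averaged 10 normalized counts or more, and of these 7 were higher and 2 lower in siL-DHX15-LEC without overlap. Over all 50197 isoforms with such a mean, 18.1% had no overlap, 10.3% being higher and 7.82% lower, and nothing is read from the count for the reason given above. Isoform values are estimates in which reads from shared exons are divided between isoforms.

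Both isoforms of Igfbp3 were higher without overlap. Igfbp3-001, which ends in a separate 3′ untranslated exon, had 11201, 10208, 9914 and 9297 normalized counts in siL-DHX15-LEC against 6070.28, 6306, 5919 and 5676 in wild-type LEC. Igfbp3-002, which reads on through exon 4 and has the same coding sequence, had 719.9, 561, 441 and 509.9 in siL-DHX15-LEC against 354, 331, 297 and 253 in wild-type LEC. Its share of the gene was 5.18 ± 0.73% in siL-DHX15-LEC and 4.88 ± 0.52% in wild-type LEC, and the shares overlapped.

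Igfbp4 had 5 isoforms that averaged 10 or more, the highest number among the 10 genes. Its main coding isoform Igfbp4-001 and 2 others, Igfbp4-004 and Igfbp4-002, splice different first exons to the same second exon, and Igfbp4-005 leaves out exon 3. The junctions are shown because they are what tells these isoforms apart, with 15 bases on each side (GENCODE M21, GRCm38, chromosome 11, plus strand). Capitals mark the bases before the junction.
Igfbp4-001, exon 1 to exon 2: GCCTGCAGACCTCTGacaaggatgagagcg
Igfbp4-004, exon 1 to exon 2: CCCCAGGTGAAGATGacaaggatgagagcg
Igfbp4-002, exon 1 to exon 2: CCCTGGCAAGCAAGAacaaggatgagagcg
Igfbp4-005, exon 2 to its last exon: GAACCCCGTCCTGTGtgtcaccccgccctg
The first 3 runs end in the same lower-case bases, the start of the shared exon at 99048226, and differ before it. The first exons are 602 bases long in Igfbp4-001, 28 in the noncoding Igfbp4-004 and 93 in Igfbp4-002. In Igfbp4-005 the last exon, from 99051445, follows directly on the second exon, which ends at 99048371.

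Igfbp4-001 had 42899.6, 44634, 43234 and 40422 normalized counts in siL-DHX15-LEC against 34500.3, 32995.5, 33922 and 33679.7 in wild-type LEC, without overlap. Igfbp4-004 had 10069, 10754, 10087 and 9584 in siL-DHX15-LEC against 8501, 8241, 8399.8 and 8368 in wild-type LEC. It was also higher in every silenced library, but by less than the gene, and its share of Igfbp4 was 18.8 ± 0.26% in siL-DHX15-LEC and 19.7 ± 0.09% in wild-type LEC, without overlap. Per kilobase this short noncoding isoform was estimated at 12896 in siL-DHX15-LEC and 10672 in wild-type LEC, above Igfbp4-001 at 11171 in siL-DHX15-LEC and 8816 in wild-type LEC. Apart from its first exon of 28 bases, all of its bases lie within exons of Igfbp4-001, and how far reads of Igfbp4-001 were assigned to it was not tested.

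Igfbp4-002 had the largest ratio between the conditions among the Igfbp4 isoforms past the mean of 10. It had 798, 598, 730.3 and 485 normalized counts in siL-DHX15-LEC against 223, 306, 324 and 168 in wild-type LEC, a ratio of means of 2.56. Its share of the gene was small and higher in each silenced library, 1.21 ± 0.24% in siL-DHX15-LEC and 0.60 ± 0.17% in wild-type LEC. Igfbp4-005, the isoform without exon 3, had 96.8, 41.5, 134 and 149 in siL-DHX15-LEC against 70.1, 69.1, 78.3 and 63.2 in wild-type LEC, and overlapped. Igfbp4-006, a noncoding fragment, had 15.0 to 27.2 in siL-DHX15-LEC and 12.4 to 13.9 in wild-type LEC. Igfbp4-004 and Igfbp4-002 were the 2 isoforms, among the 20, whose shares of their gene did not overlap between the conditions.

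**Figure D3:**
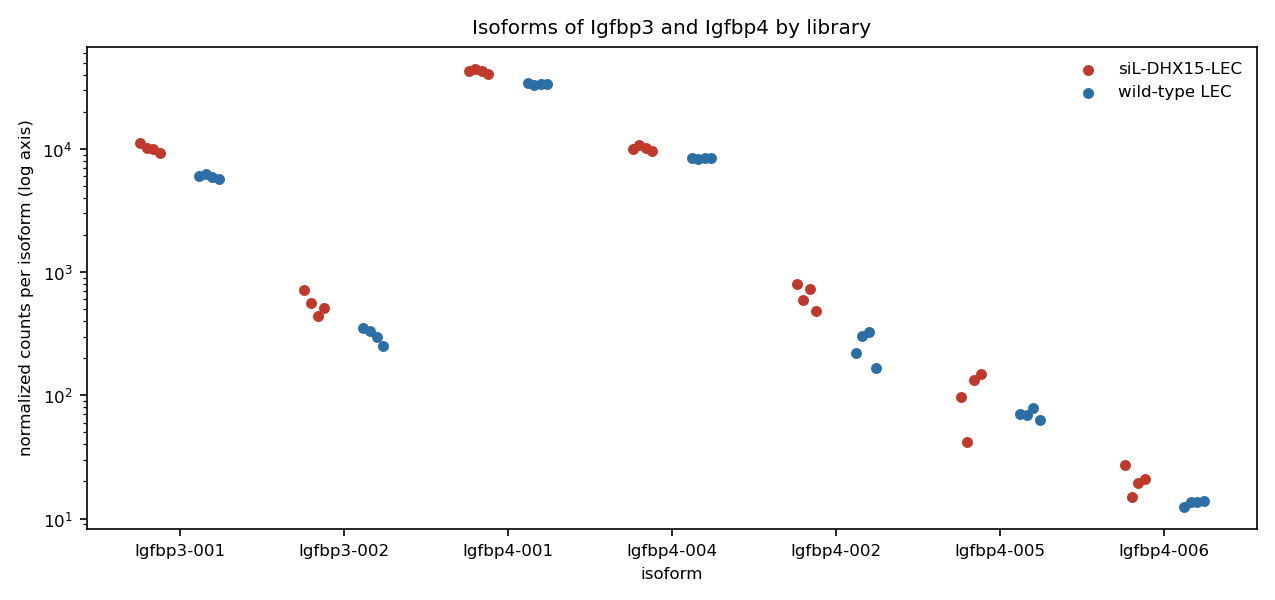
Normalized counts (log axis) of the 2 isoforms of Igfbp3 and of 5 isoforms of Igfbp4 in the 4 siL-DHX15-LEC libraries (red, left of each pair) and the 4 wild-type LEC libraries (blue). All but Igfbp4-005 lie higher in every silenced library, with the widest gap on the log axis in Igfbp4-002.

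The insulin receptor exists in a form with and a form without a short exon of 36 bases in the extracellular part, and the form without it binds IGF2 as well as insulin. The exon and the junction without it are shown because they separate the 2 coding isoforms in the files (chromosome 8, minus strand, GENCODE M21). Capitals mark the exon, at 3181702 to 3181737.
Insr-003, with the exon: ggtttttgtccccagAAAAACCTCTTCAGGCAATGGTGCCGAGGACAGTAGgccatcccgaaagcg
Insr-001, without the exon: ggtttttgtccccaggccatcccgaaagcg
Insr-001, of 9355 bases, had 6213, 5544, 5913 and 5663 normalized counts in siL-DHX15-LEC against 4964, 5875, 5349.6 and 4991 in wild-type LEC. Insr-003, a partial model of 672 bases, had 47.5, 59.2, 77.2 and 65.3 in siL-DHX15-LEC against 52.5, 59.5, 60.6 and 79.6 in wild-type LEC. Both overlapped between the conditions. Per kilobase Insr-003 stood at 92.7 in siL-DHX15-LEC and 93.9 in wild-type LEC, and Insr-001 at 624 in siL-DHX15-LEC and 566 in wild-type LEC. These values do not give the ratio of the 2 receptor forms. No full-length coding isoform with the exon was among those deposited, and apart from the exon all bases of Insr-003 lie within exons of Insr-001. How reads were divided between the 2 was not tested. The retained-intron isoforms Insr-002 and Insr-005 also overlapped, as did Igf1r-001 and the retained-intron isoforms Igf1r-003 and Igf1r-006.

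In Igfbp7 the coding isoform Igfbp7-001 held 98.6 ± 0.19% of the gene in siL-DHX15-LEC and 98.9 ± 0.15% in wild-type LEC. Igfbp7-002, with an extra exon of 93 bases, had 158, 152.8, 155 and 113 normalized counts in siL-DHX15-LEC against 115, 106, 131 and 94.3 in wild-type LEC, and overlapped. Igfbp6-001 and Irs2-001 are the sole isoforms of their genes. Igf1-001 had 11.9, 4.42, 9.65 and 14.2 in siL-DHX15-LEC against 14.4, 17.5, 19.8 and 15.6 in wild-type LEC, lower without overlap. Igfbp2-001 had 3.40, 17.7, 14.0 and 4.73 in siL-DHX15-LEC against 24.7, 11.1, 14.6 and 28.6 in wild-type LEC, and overlapped.

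The rest of the pathway was given by 50 other genes in 9 lists, tested with limma across all genes. Of the 38 that reached the mean of 10, 8 were higher and 8 lower in siL-DHX15-LEC at an adjusted p of 0.05, and 22 did not pass. The share that passed in either direction is to be read against the 18.4% of all genes called higher and the 14.8% called lower. The median log2 fold change of the 38 was 0.00101, against -0.01 over all genes tested.

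Of the other ligands and receptors, Igf2, the second IGF, had 19.9 to 29.0 normalized counts in siL-DHX15-LEC and 26.2 to 41.2 in wild-type LEC and did not pass (adjusted p = 0.124, limma). Igf2r, the receptor that takes up IGF2 for degradation, did not pass either, at 11364 ± 275 in siL-DHX15-LEC and 10507 ± 547 in wild-type LEC (adjusted p = 0.0547, limma). The insulin genes Ins1 and Ins2 were at 0 in all 8 libraries. The 3 other binding protein genes, Igfbp1, Igfals and Igfbpl1, did not reach the mean of 10.

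Proteins that share the IGFBP fold without being classical carriers had the most calls. Of 8 tested, 2 rose and 5 fell, with a median log2 fold change of -0.17. Htra1, a secreted serine protease, rose to 14227 ± 1623 normalized counts in siL-DHX15-LEC, against 8585 ± 453 in wild-type LEC (adjusted p = 5.13e-05, limma, log2 fold change 0.72, SE 0.07), and was higher in 4 of 4 silenced libraries. Ctgf, a matricellular protein, fell to 14829 ± 579.7 in siL-DHX15-LEC, against 18958 ± 989 in wild-type LEC (adjusted p = 0.000197, limma, log2 fold change -0.35, SE 0.04). Crim1, a transmembrane protein that binds BMPs, fell with a log2 fold change of -0.35 (SE 0.06), and Htra3, a protease related to Htra1, rose with 0.38 (SE 0.06). Kazald1, Wisp1 and Cyr61 fell as well, Cyr61 with an adjusted p of 0.0218 (limma) that did not hold with another variance model.

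Among the proteases that cut binding proteins and their inhibitors, 1 of 4 tested passed. Stc2, which inhibits the pappalysins that cleave IGFBP4, rose to 1426 ± 120.1 normalized counts in siL-DHX15-LEC, against 886 ± 80.1 in wild-type LEC (adjusted p = 0.000102, limma, log2 fold change 0.69, SE 0.08). Pappa, the pappalysin that cleaves IGFBP4, was scarce, with 14.1 to 20.4 in siL-DHX15-LEC and 15.7 to 36.1 in wild-type LEC, and did not pass (adjusted p = 0.163, limma). Of 2 cell surface proteins that bind IGFBP3, Tmem219, described as its death receptor, rose to 1894 ± 101 in siL-DHX15-LEC, against 1422 ± 45.2 in wild-type LEC (adjusted p = 0.000184, limma, log2 fold change 0.41, SE 0.05). Lrp1 stood at 208995 ± 1958 in siL-DHX15-LEC and 216092 ± 5826 in wild-type LEC and did not pass.

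Of 13 receptor adaptors and negative regulators tested, 2 rose and 1 fell. Irs1, the other widely expressed IRS adaptor, had 3379, 3424, 3603 and 4001 normalized counts in siL-DHX15-LEC against 5389, 5579.8, 5781 and 5223 in wild-type LEC. It fell by 0.61 on the log2 scale (SE 0.06, adjusted p = 3.28e-05, limma) and was lower in 4 of 4 silenced libraries. Grb10, an adaptor that dampens both receptors, rose with a log2 fold change of 0.22 (SE 0.04), and Shc1, an adaptor towards Ras, with 0.17 (SE 0.04). Furin, which cuts the receptor precursors, and Ide, which degrades insulin, did not pass.

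Of the 3 IGF2 mRNA-binding proteins, Igf2bp2 rose to 18896.5 ± 217 normalized counts in siL-DHX15-LEC, against 15106 ± 397 in wild-type LEC (adjusted p = 5.58e-05, limma, log2 fold change 0.32, SE 0.03). Igf2bp3 fell to 381 ± 12.2 in siL-DHX15-LEC, against 482 ± 22.3 in wild-type LEC (adjusted p = 0.00246, limma), and Igf2bp1 did not pass. Of the FoxO factors, which Akt keeps out of the nucleus, Foxo6 fell with a log2 fold change of -0.31 (SE 0.07), Foxo3 passed with 0.13 (SE 0.04, adjusted p = 0.0405, limma) although its conditions overlapped, a call that 12 of the alternatives lost, and Foxo1 and Foxo4 did not pass.

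**Figure D4:**
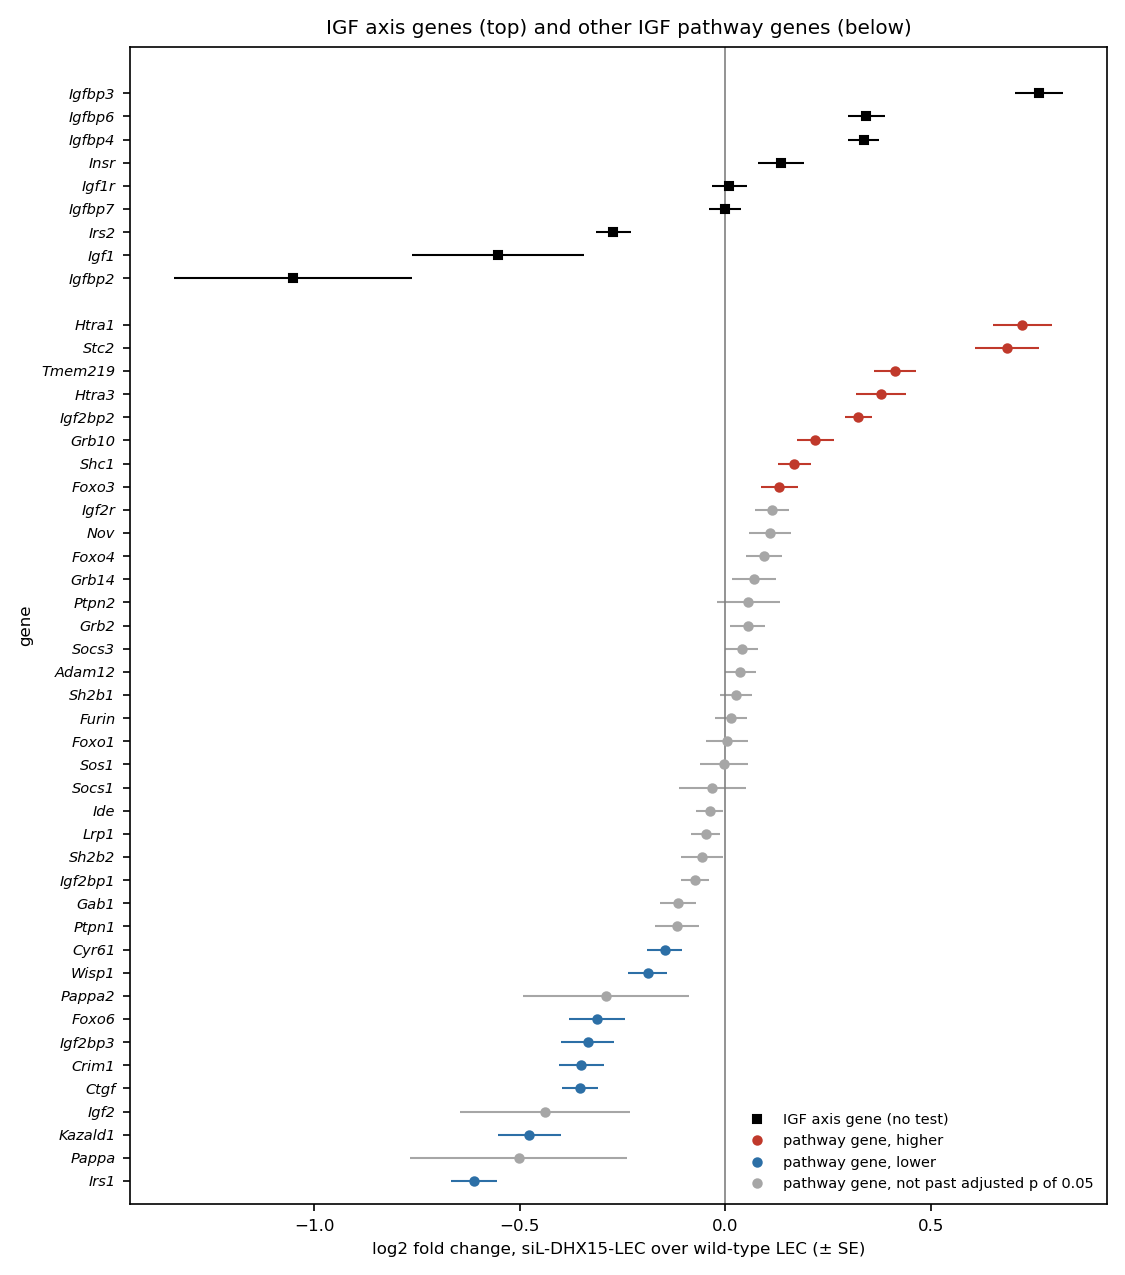
Log2 fold change of siL-DHX15-LEC over wild-type LEC with its SE for 9 IGF axis genes (black squares, no test) and 38 other IGF pathway genes (circles, red if higher, blue if lower, grey if not past an adjusted p of 0.05). Igfbp3 at 0.76 is followed by Htra1 at 0.72 and Stc2 at 0.69, and the lowest circle is Irs1 at -0.61.

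The genes whose pattern over the 8 libraries was most like that of Igfbp3 were Agpat9, Cr1l, P4ha1, Patl1 and Ank, with Pearson correlations of 0.999, 0.998, 0.998, 0.997 and 0.996 on the log2 scale, out of 13487 genes with a mean of at least 50. The 8 points share the split into 2 conditions and their lanes, so that any gene with a steady difference in the same direction correlates highly. Agpat9 stood at 2549 ± 213 normalized counts in siL-DHX15-LEC and 1508 ± 83.1 in wild-type LEC, a log2 fold change of 0.76, like that of Igfbp3. Those of Cr1l, P4ha1, Patl1 and Ank were smaller, at 0.58, 0.41, 0.26 and 0.37.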

How the data were processed

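Stranded libraries were made from poly-A RNA. STAR 2.5.2a (GRCm38), RSEM 1.2.28 (GENCODE M12) and DESeq2 1.18 were the aligner, the isoform quantifier and the normalization of the authors, who deposited a signal, the normalized count of each isoform in each library. The percent values of mapping, as deposited, come from the sequencing center. Every value was a whole multiple of the normalized count of 1 read (0.794 to 1.70, 100% of values within 0.1 of a step), which gave whole reads recovered of 77335734 to 152045693 per library.

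Isoforms were summed per gene. Genes averaging 10 or more were put on the log2(value + 1) scale and fitted in limma 3.58.1 under R 4.3.3 with a variance trend, two-sided, with Benjamini-Hochberg adjustment at 0.05. Fold changes on this scale understate those of scarce genes. Count tests on the recovered reads called 5640 genes (edgeR 4.0.16) and 5519 (DESeq2 1.42.0), against 5478. Intron, exon and gene positions and lengths came from GENCODE M21 by transcript identifier, matching all 36 isoforms. Promoters came from RefSeq.

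The 10 genes and all lists were chosen with earlier results of these data known. Named are these genes and their isoforms with a mean of at least 10, Dhx15, every pathway gene past the threshold with values for at most the 4 of smallest p per list, and the 5 genes most correlated with Igfbp3 (mean of at least 50). Other pathway genes and cell type markers were named after seeing their values. Alternatives tried were pseudocounts of 0.5 and 5, a minimum mean of 50 or none, other scalings, the isoform with the highest mean, no variance trend, count tests, and leaving out each library.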

Additional observations from a re-analysis of the deposited data

Results flagged for a closer look

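In 86 groups of 4 libraries, made up of the 10 IGF axis genes, their 20 isoforms past the mean of 10 and the 13 pathway genes with the smallest p of their lists (at most 4 a list) in each condition, the highest and lowest library were compared with the others by Dixon's test at the 95% level, and 2 groups had a library apart. Chance flags about 1 in 20 groups. Igfbp7-002 had 112.58 normalized counts in siL-DHX15-LEC replicate 4, against 152.8 to 157.9 in the other 3 silenced libraries. Igfbp5 had 0.79 normalized counts, a single read, in wild-type LEC replicate 2 and was at 0 in the other wild-type libraries.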

How the results depend on the processing

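No paired analysis was possible because the labels give no replicate numbers that the conditions share. Igfbp3 kept its direction under all alternatives run, with a log2 fold change of 0.71 to 0.80 when each library was left out, and Igfbp4 and Igfbp6 stayed higher and Irs2, Igfbp2 and Igf1 lower wherever they were fitted. Rescaling to equal totals moved the log2 fold change of Igfbp4 to 0.27, Igfbp6 to 0.28, Irs2 to -0.34, Igfbp7 to -0.07 and Igf1r to -0.06, and the median over all genes by -0.07. Under it 1861 genes were higher and 3896 lower, and 13 pathway genes were lower in place of 8. Left-out libraries gave 4 to 5 IGF axis genes higher and 2 to 3 lower without overlap, 7 to 9 pathway genes higher and 7 to 9 lower, and 4010 to 6543 genes changed. The order per length was the same with the length of the isoform with the highest mean. Cyr61 lost its call without the variance trend (adjusted p = 0.0567, limma) and without siL-DHX15-LEC replicate 3 (0.0568), Shc1 under equal totals (0.0531, limma), and Foxo3 under 12 alternatives. The causes were not tested. For Igfbp2, Igfbp5 and Igf1 depth is the limit, with at most 39 reads in a library.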
